A study of Glycine max with 12 samples.

Results

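The response of soybean (Glycine max) roots to aluminium was examined in the line labelled OX. Its 6 libraries were chosen by their labels from the 12 of the series. OX_Al, with 3 libraries, is OX roots given 50 µM AlCl3, and OX_CK, with 3 libraries, is OX roots given 0 µM. The other 6 libraries, 3 each of WT_Al and WT_CK, are roots labelled WT under the same concentrations and served to test where the OX response differed. The labels do not say which gene the OX line carries, how many independent lines it stands for, the age of the plants or how long aluminium was given. Nor is it stated that the 3 libraries of a group are from different plants, so the p-values rest on a spread that may be partly technical. The comparison addresses the search for genes of aluminium tolerance that the design text names.

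In acid soil, dissolved aluminium ions enter the root tip and stop root elongation. Plants are known to answer by releasing malate or citrate, which bind the metal outside the root, by moving aluminium into vacuoles and by altering the cell wall. In Arabidopsis the zinc finger factor STOP1 switches on several of the transporters that do this. The deposited table does not pair its identifiers with names or functions, and 0 of them matched the reference table, so genes are given by identifier, without roles, and each group of genes described has no more than 2 named rises and 2 named falls. The same lack left the root label without a check against marker genes. In whole roots, fewer cells of a type and less RNA per cell cannot be told apart.

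Each OX library held between 15923413 and 18399566 counts, and the median over tested genes was 176.3 counts per OX library. Spearman's correlation between libraries, computed across genes that are no independent replicates, ran from 0.9804 to 0.9875 within OX_Al and from 0.9656 to 0.9775 within OX_CK, against 0.8464 to 0.9088 between OX_Al and OX_CK. The first principal component of the 6 OX libraries took 77.4% of the variance and set the OX_Al libraries, at -93.32, -113.36 and -125.14, apart from the OX_CK libraries, at 130.75, 101.4 and 99.67. On the second, with 9.35%, OX_CK replicate 3 lay at -74.23 and every other OX library between -15.03 and 46.29. For genes with a mean of at least 5 CPM (counts scaled to a common library size), the median coefficient of variation was 10.5% in OX_Al and 15.6% in OX_CK.

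Aluminium changed 36.4% of the tested genes in OX roots, and rises reached further than falls. Of 37170 tested genes, 7888 rose (21.2%) and 5660 fell (15.2%) in OX_Al against OX_CK, by edgeR's quasi-likelihood F-test at a Benjamini-Hochberg adjusted p under 0.05. The OX_Al libraries all lay above the OX_CK libraries for 7803 of the 7888 raised genes, against 27.8% of all tested genes. They all lay below them for 5465 of the 5660 lowered genes, against 23.2% of all tested genes. The genes were called on these same libraries, which favours such separation, so it is no further support for the calls. The number lowered was 3605 without OX_Al replicate 2 and 3107 without OX_Al replicate 3.

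Changes of at least 2-fold were seen in 5019 raised genes (13.5% of those tested) and 2347 lowered genes (6.31%). Changes of at least 4-fold, a log2 fold change of 2, were seen in 2628 raised genes (7.07%) and 331 lowered genes (0.891%). Past 4 on the log2 scale there were 839 raised (2.26%) and 37 lowered genes (0.0995%), and past 6 there were 304 raised (0.818%) and 6 lowered (0.0161%). Fitted values of that size include genes without a count in 1 of the groups, where they depend on the prior count. The 90th percentile of the raised genes was a log2 fold change of 4.10, and the 10th percentile of the lowered genes was -1.69. Over all tested genes the median log2 fold change was -0.017.

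**Figure D1:**
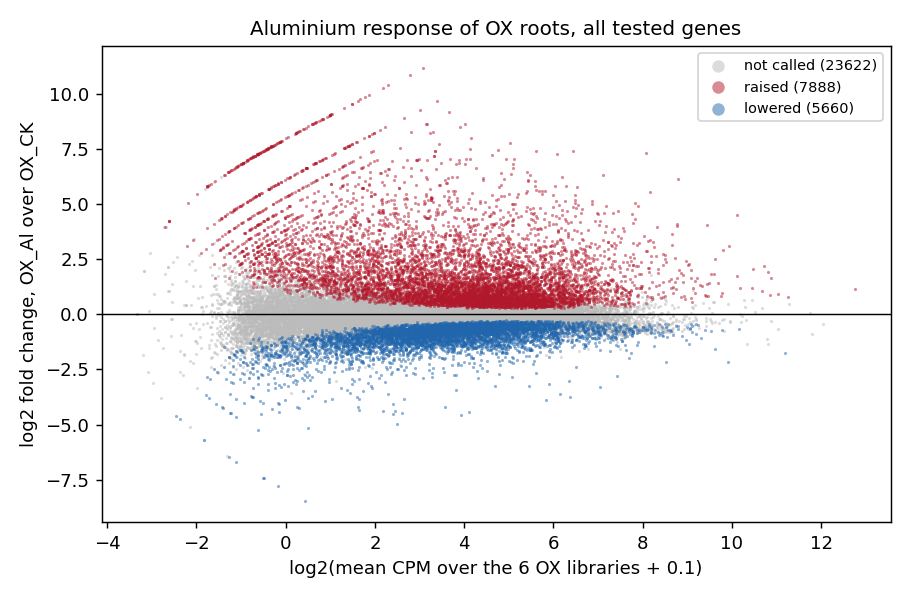
Each point is 1 of the 37170 tested genes. The horizontal axis gives its mean level over the 6 OX libraries as log2(CPM + 0.1), the vertical axis its log2 fold change in OX_Al over OX_CK, and colours mark the 7888 raised, the 5660 lowered and the genes that were not called. Rises reach beyond a log2 fold change of 6, which 304 raised and 6 lowered genes pass, and the slanted lines of points at low levels are genes with no or few counts in a group.

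The raised genes took a large part of each aluminium-treated library. They held 37.1%, 41.4% and 41.5% of all CPM in the OX_Al libraries, against 13.3%, 16.5% and 16.6% in the OX_CK libraries. The lowered genes held 12.2%, 10.9% and 9.9% in OX_Al, against 20.1%, 20.3% and 18.6% in OX_CK. These sums describe genes that were picked by the same comparison. Among the 100 genes with the most CPM in OX_Al, counted without regard to length, 58 rose and 3 fell, while among the 100 with the most CPM in OX_CK, 15 rose and 26 fell, beside 21.2% raised and 15.2% lowered among all tested genes. Each list is ranked by the level in a group that is compared, which favours rises at the top of OX_Al and falls at the top of OX_CK, so nothing is read from these counts. The lists shared 54 genes.

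The share of genes called differed between levels, taken as the mean CPM of the higher OX group. That level is itself part of the comparison, and a rise moves a gene to a higher level. The shares below are therefore a description. Below 1 CPM, 9.55% of 2491 genes rose and 4.26% fell, with a median standard error (SE) of 0.61 on the log2 scale. From 5 to 20 CPM, 17.8% of 12512 genes rose and 18.6% fell, with a median SE of 0.21. At 1000 CPM or more, 24 of 51 genes rose and 5 fell. The genes below 1 CPM that rose had a median log2 fold change of 3.26, and smaller changes of such genes were often not detectable at this depth.

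A first group of genes had no count at all in the OX_CK libraries. It held 144 raised genes, of which 96 reached a mean of 1 CPM or more in OX_Al and 10 reached 5 CPM or more. They passed the filter on low counts only through other groups, so their number is no share of all genes that were silent without aluminium. The 96 genes had a median level of 1.63 CPM in OX_Al and were at least 18.2-fold to at least 302-fold higher there, set against 3 counts over the 3 OX_CK libraries. Without OX_CK replicate 2 there were 166 such genes, with fewer libraries required to lack a count. In the opposite direction, 8 lowered genes had no count in OX_Al, and 4 of them had a mean of 1 CPM or more in OX_CK.

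Glyma.U032600 showed the largest rise of the genes with a mean of at least 5 CPM. It had 15.25, 14.99 and 20.08 CPM in the OX_Al libraries and no count in any OX_CK library. All OX_Al libraries were thus well above the 0.0556 CPM that 3 counts over OX_CK would give, and the gene was at least 302-fold higher (adjusted p = 4.65e-07). Glyma.18G095600 came next, with 10.02, 12.23 and 18.23 CPM in OX_Al. It too lacked any count in OX_CK, which makes it at least 243-fold higher (adjusted p = 9.56e-05). In WT roots, Glyma.U032600 had 3 counts in all over the WT_Al libraries and 1 over the WT_CK libraries, and Glyma.18G095600 had none in either. The difference of the response between OX and WT was not called for either gene (adjusted p = 0.0584 for Glyma.U032600 and 1 for Glyma.18G095600), where 3 of the 4 groups held 3 counts or fewer.

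The WT values of the same 96 genes are a description, since the genes had to be high in some group to pass the filter on low counts. Of the 96, 71 rose in WT_Al against WT_CK, where 21.5% of all tested genes rose. Of them, 18 had 3 or fewer counts over the WT_Al libraries and 92 had 3 or fewer over the WT_CK libraries. None of the 96 was called for a different response in OX and WT by edgeR, where 12 had an unadjusted p under 0.05. The DESeq2 Wald test called 12 and limma-voom 20. For Glyma.18G095600, with no count outside OX_Al, the SE of the difference, derived from F, was 26062.92 on the log2 scale. That value follows from a very small F and is no measure of precision. The test could hardly call genes with so few counts in both untreated groups, so nothing is read from the missing calls.

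A second group was already well expressed without aluminium. Of the 4148 tested genes with a mean of 50 CPM or more in OX_CK, 603 rose (14.5%) and 897 fell (21.6%), so that falls outnumbered rises, whereas 21.2% of all tested genes rose and 15.2% fell. Their changes had median log2 fold changes of 0.87 and -0.74. A change of 4-fold or more was reached by 58 of those that rose and 20 of those that fell. The level that defines the group is itself part of the comparison, and a high OX_CK level favours falls, so these counts are a description.

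The genes of this group with the largest changes were picked after their values were seen, from genes without overlap between OX_Al and OX_CK. Glyma.13G117700 had 1851, 2300 and 2198 CPM in the OX_Al libraries, against 60.3, 88.1 and 128.3 CPM in the OX_CK libraries. The gene rose 22.9-fold between the means, a log2 change of 4.52 ± 0.30 (SE, adjusted p = 7.51e-07). Its values are not whole in any of the 12 libraries. Sharing of reads with similar genes was not tested, and the gene is uncertain for that reason. Glyma.02G190900 had 1081, 1416 and 1449 CPM in OX_Al, against 53.8, 95.2 and 86.3 CPM in OX_CK, a rise of 4.07 ± 0.39 on the log2 scale (adjusted p = 1.21e-05). Both genes also rose in WT, by 5.85 ± 0.32 and 5.83 ± 0.43, and the difference of the response was not called (adjusted p = 0.112 for Glyma.13G117700 and 0.12 for Glyma.02G190900).

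The 2 largest falls among the well expressed genes, also picked after their values were seen, left them at low levels under aluminium. Glyma.16G072000 had 8.38, 7.23 and 6.44 CPM in OX_Al, against 63.3, 113.5 and 145.3 CPM in OX_CK, a log2 change of -3.87 ± 0.43 (SE, adjusted p = 3.88e-05). Glyma.08G339400 had 7.92, 9.53 and 16.2 CPM in OX_Al, against 61.1, 261.5 and 137.2 CPM in OX_CK, a log2 change of -3.77 ± 0.47 (adjusted p = 9.2e-05). Both were picked from genes without overlap between the groups, and the OX_CK libraries of Glyma.08G339400 differed widely among themselves. Both genes also fell in WT, with log2 fold changes of -2.46 ± 0.40 for Glyma.16G072000 and -3.30 ± 0.48 for Glyma.08G339400. The difference of the response was not called for either (adjusted p = 0.307 and 0.826). Values are not whole in 3 libraries for Glyma.16G072000 and in 1 for Glyma.08G339400, so both are uncertain.

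Over all levels from 5 CPM in the higher group, the largest falls were smaller than the largest rises. Glyma.11G236700 had 0.720, 0.263 and 0.0596 CPM in OX_Al, against 12.92, 4.07 and 15.38 CPM in OX_CK, and OX_CK replicate 2 was the lowest untreated library. The log2 change was -4.96 ± 0.70 (SE, adjusted p = 0.000225). Glyma.03G254300 had 1.11, 1.84 and 0.715 CPM in OX_Al, against 27.42, 26.08 and 33.85 CPM in OX_CK (log2 fold change -4.58 ± 0.45, adjusted p = 1.46e-05). Its groups were far apart and its untreated libraries close together. Both genes fell in WT as well, with log2 fold changes of -4.95 ± 0.60 for Glyma.11G236700 and -4.28 ± 0.41 for Glyma.03G254300.

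**Figure D2:**
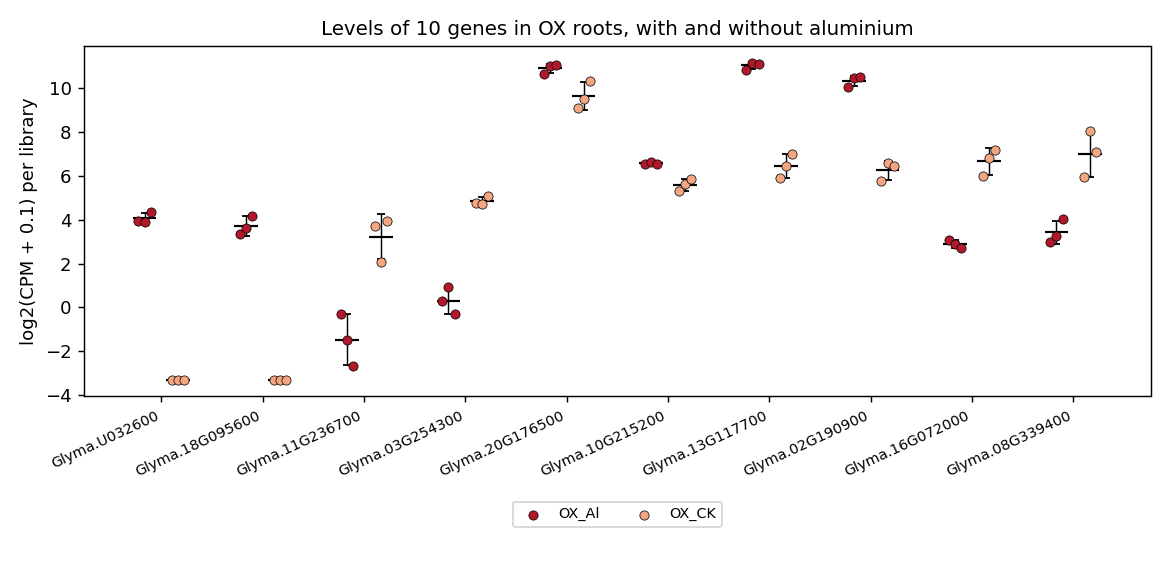
Points are single libraries, with OX_Al left of OX_CK for each of 10 genes, on a vertical axis of log2(CPM + 0.1); horizontal lines are means and error bars are 1 SD of the 3 values. The groups are fully apart for all 10 genes, with no count in OX_CK for Glyma.U032600 and Glyma.18G095600 and at most 16.2 CPM in OX_Al for Glyma.16G072000 and Glyma.08G339400.

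Glyma.20G176500 and Glyma.10G215200 were described because earlier results of these data singled them out. Glyma.20G176500 had 1624, 2052 and 2138 CPM in OX_Al, against 543.4, 732.5 and 1283 CPM in OX_CK, so the highest untreated library stayed below the lowest treated one. Its rise was 1.18 ± 0.29 on the log2 scale (SE, adjusted p = 0.00802). In WT roots it had 114.0, 99.8 and 95.4 CPM in WT_Al and 23.6, 26.1 and 36.0 CPM in WT_CK, far below every OX library. Without aluminium, OX_CK was above WT_CK for this gene by 4.90 ± 0.34 on the log2 scale (edgeR's F-test, adjusted p = 2.54e-05). Glyma.10G215200 had 92.1, 99.7 and 94.0 CPM in OX_Al, against 39.2, 49.1 and 57.3 CPM in OX_CK, and rose by 0.97 ± 0.20 (adjusted p = 0.00265). The difference of the response from that of WT was not called for either gene, at -0.67 ± 0.41 for Glyma.20G176500 (adjusted p = 0.575) and 0.10 ± 0.28 for Glyma.10G215200 (adjusted p = 0.921). Their values are not whole in 11 of the 12 libraries, so both are uncertain.

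Loci without a Glyma identifier, which carry MSTRG numbers in the table, were raised at a share above that of all tested genes. Of 641 tested, 212 rose (33.1%) and 66 fell (10.3%), beside 21.2% and 15.2% of all tested genes. Among raised loci the median on the log2 scale was 4.74, compared with 1.32 among raised genes that carry Glyma identifiers. They made up 14.9% of the 839 genes raised past 4 on the log2 scale, and all MSTRG loci made up 1.72% of the tested genes. These loci had lower levels, with a median of 2.06 CPM in OX_Al, and raised genes of low level had larger fitted changes in general. From 1 to 5 CPM in the higher OX group, the median log2 fold change was 5.44 for 110 raised loci and 2.24 for 1168 raised Glyma genes, and from 5 to 20 CPM it was 2.78 for 44 loci and 1.29 for 2188 Glyma genes. Of the 212, 54 had no count in OX_CK, where fitted values depend on the prior count. Those 54 passed the filter on low counts only through other groups. Whether a locus was listed because it was high in some of these libraries is not stated, so the shares and medians above are a description. In WT, 172 of the 212 also rose (81.1%), beside 75.5% of all genes raised in OX.

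Raised genes also lay side by side. Glyma identifiers are numbered along each chromosome, and 120 runs of 4 or more consecutive tested genes rose in OX_Al, with 551 genes in all, against 40 runs and 168 genes that fell. Runs in which each gene rose 4-fold or more numbered 11, with 59 genes. More genes rose than fell, and the arrangement itself was not tested.

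The longest run of genes that all rose 4-fold or more was 9 genes from Glyma.15G174400 to Glyma.15G175400 on chromosome 15. Their log2 fold changes lay between 2.01 and 3.12, and their mean levels between 1.66 and 9.67 CPM in OX_Al, against 0.18 to 2.39 CPM in OX_CK. Summed over the run, the means were 47.2 CPM in OX_Al and 8.66 CPM in OX_CK. All 9 genes have values that are not whole, so they are uncertain and may not be 9 separate measurements. All 9 were raised in each of the 6 fits that left out an OX library. In WT, 6 of the 9 also rose, and the adjusted p of the difference of the response lay between 0.253 and 0.989, so that it was not called for any of them. The tested genes on either side, Glyma.15G174300 and Glyma.15G175500, rose in OX too, by 1.30 ± 0.32 and 1.37 ± 0.23 on the log2 scale.

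The next was 7 genes from Glyma.03G015800 to Glyma.03G016400 on chromosome 3, all with whole values. Their log2 fold changes ran from 2.12 to 4.63, and their mean levels from 1.14 to 57.8 CPM in OX_Al, against 0.257 to 5.71 CPM in OX_CK. The first gene, Glyma.03G015800, had 53.1, 54.1 and 66.1 CPM in OX_Al, against 3.64, 8.95 and 4.54 CPM in OX_CK. The 3 tested genes before the run were not called, with log2 fold changes of 0.12 to 0.57, and the rise began at Glyma.03G015800. Of the 7 genes, 5 were still called without OX_Al replicate 3 or without OX_CK replicate 1. All 7 genes also rose in WT, and 2 of them rose less in OX than in WT by the test of the difference (adjusted p = 0.0436 and 0.0306).

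**Figure D3:**
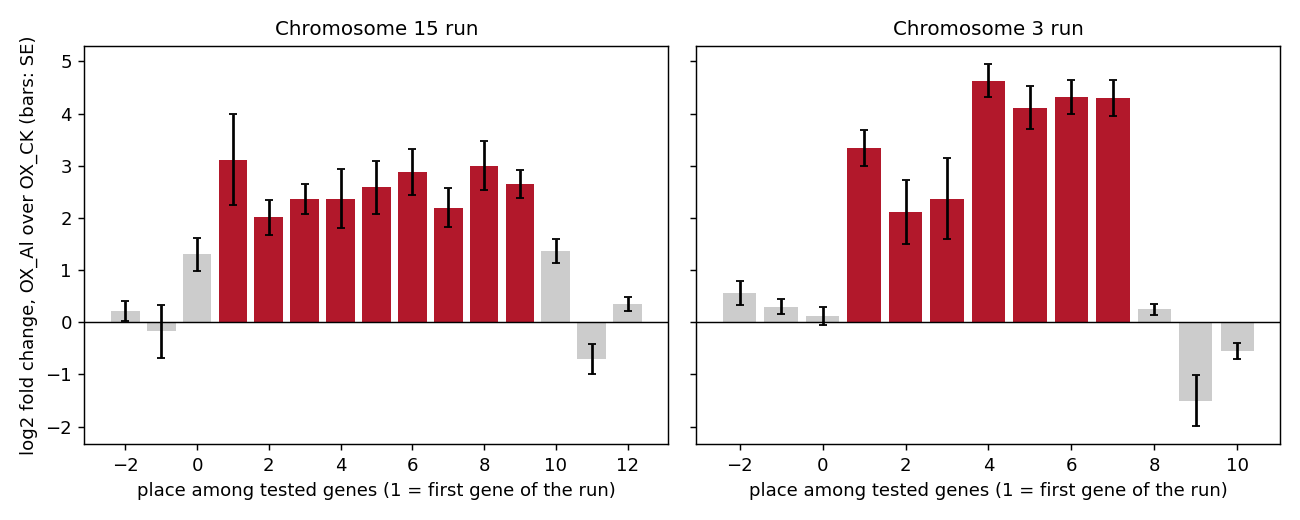
Bars give the log2 fold change of OX_Al over OX_CK with its SE for consecutive tested genes, in the order of their identifiers. Red bars are the 9 genes on chromosome 15 and the 7 on chromosome 3 that all rose 4-fold or more, and grey bars are the 3 tested genes on either side; on chromosome 3 the bars change abruptly at both ends of the run.

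WT was used to ask which parts of the OX response differed. The comparisons within OX and within WT use separate libraries but share an estimate of the spread of each gene, so their calls are not independent. Of the 7888 genes raised in OX, 5959 (75.5%) also rose in WT, beside 21.5% of all tested genes, and 7455 had a positive log2 fold change there, as did 47.6% of all tested genes. Of the 5660 lowered in OX, 3406 (60.2%) also fell in WT, beside 15.9% of all tested genes, and 5529 had a negative log2 fold change there, as did 52.4% of all tested genes. The 5959 genes that rose in both had a median log2 fold change of 1.51 in OX and 1.74 in WT.

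Few of the genes without a call in WT were called for the difference between the lines, and a missing call does not show that the lines responded alike. Of the 1878 genes raised in OX and not called in WT, 170 were called for the difference itself, and of the 2245 lowered in OX and not called in WT, 4 were. Over all 37170 genes, the response was higher in OX for 327 (0.88%) and lower in OX for 278 (0.748%). Among genes raised in OX, 267 had a higher response than in WT and 196 a lower one. All 196 rose in both lines, and a WT change larger than the OX rise is part of how they were picked. Among genes lowered in OX, 26 differed.

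These counts depend on single libraries. The 327 became 166 and 205 without OX_Al replicate 2 or 3, 216 and 178 without WT_Al replicate 1 or 2, and 190 without WT_CK replicate 2. The 278 became 100, 106 and 113 without OX_Al replicate 1, 2 or 3, 437 and 154 without OX_CK replicate 1 or 2, 119 and 95 without WT_Al replicate 1 or 2, and 151 and 102 without WT_CK replicate 1 or 2. The 267 became 143 and 168 without OX_Al replicate 2 or 3, 160 without WT_Al replicate 2 and 171 without WT_CK replicate 2. The 196 became 72, 70 and 82 without OX_Al replicate 1, 2 or 3, 115 without OX_CK replicate 2, 83 and 72 without WT_Al replicate 1 or 2, and 112 and 75 without WT_CK replicate 1 or 2.

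**Figure D4:**
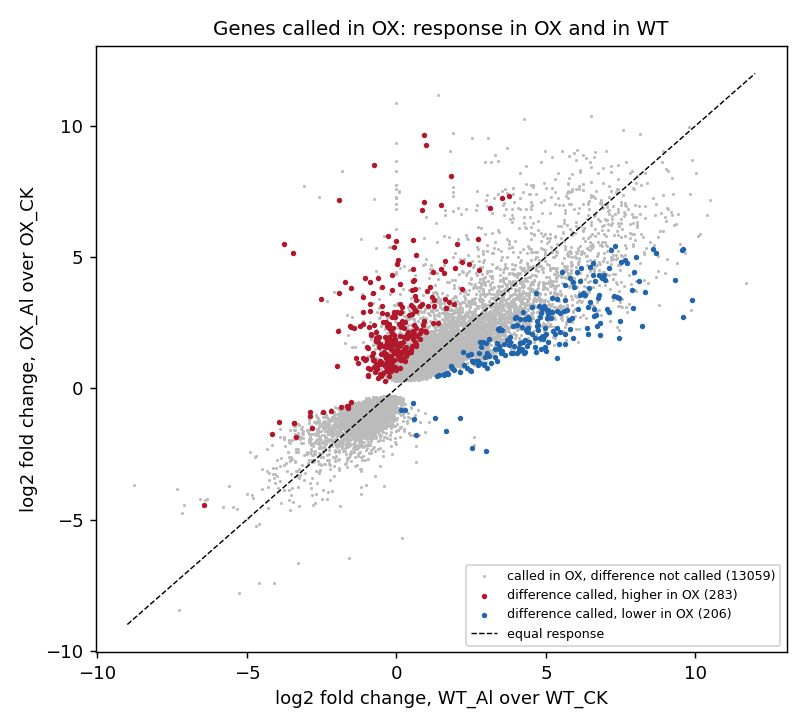
Points are the genes called in OX, placed by their log2 fold change with aluminium in WT (horizontal) and in OX (vertical), with a dashed line where both are equal. Red and blue points are genes whose response was called higher or lower in OX, which by itself places them above or below the line. Blue points are 196 genes that rose in both lines and 10 that fell in OX, of which 6 rose in WT and 4 were not called there. Many red points lie near 0 on the WT axis.

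Genes that were strong in OX_Al and flat in WT stood at one end of that difference. They were picked after their values were seen, from genes with 50 CPM or more in an OX group. Glyma.11G212300 had 101.5, 134.5 and 134.6 CPM in OX_Al and 3.23, 2.77 and 2.81 CPM in OX_CK, against 4.41, 4.39 and 2.82 CPM in WT_Al and 3.84, 4.61 and 3.71 CPM in WT_CK. The OX_Al libraries stood alone, and the response was higher in OX by 5.46 ± 0.27 on the log2 scale (SE, adjusted p = 5.36e-06). Values are not whole in 1 library for Glyma.11G212300, so it is uncertain. Glyma.09G278900 had 56.1, 58.2 and 87.6 CPM in OX_Al and 0.270 to 0.763 CPM in OX_CK, against 0.443 to 0.703 CPM in WT_Al and 0.110 to 0.464 CPM in WT_CK. Its difference was 5.95 ± 0.72 (adjusted p = 0.00192), and again only the OX_Al libraries were high.

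At the other end were genes that rose less in OX than in WT and whose OX_CK libraries lay above the WT_CK libraries. Glyma.13G203000 had 2541, 3265 and 2723 CPM in OX_Al and 437.3, 945.3 and 901.6 CPM in OX_CK, against 1819, 1729 and 1417 CPM in WT_Al and 6.42, 10.9 and 10.8 CPM in WT_CK. It rose in OX by a log2 change of 1.90 ± 0.31 (SE, adjusted p = 0.000572), and the difference from WT was -5.56 ± 0.45 (adjusted p = 0.000156). MSTRG.8684 had 47.5, 68.9 and 59.5 CPM in OX_Al and 6.05, 18.5 and 5.29 CPM in OX_CK, against 29.0, 17.5 and 15.8 CPM in WT_Al and 0.165, 0.0555 and 0.103 CPM in WT_CK. Its difference was -4.94 ± 0.87 (adjusted p = 0.0161), and that call ended without WT_CK replicate 2 or 3 (adjusted p = 0.0657 and 0.0509) and by limma-voom (adjusted p = 0.136). For both genes the OX_Al libraries were also the highest of all groups.

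**Figure D5:**
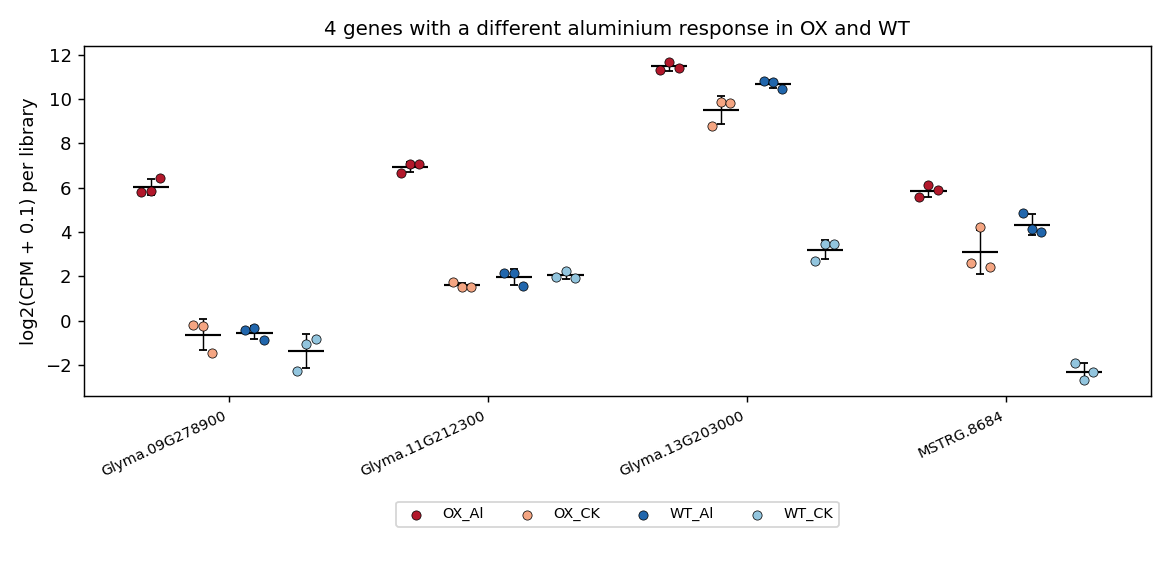
Points are single libraries of 4 genes in OX_Al, OX_CK, WT_Al and WT_CK on a vertical axis of log2(CPM + 0.1), with lines at the means and error bars of 1 SD of 3 values. Glyma.09G278900 and Glyma.11G212300 are high in OX_Al alone, while Glyma.13G203000 and MSTRG.8684 are lowest in WT_CK and intermediate in OX_CK.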

How the data were processed

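Total RNA of 12 soybean root libraries was sequenced. Estimated counts, unscaled between libraries, were deposited by the authors in 1 table; 13.25% of its values were not whole (tolerance 1e-06). The submitters' processing notes name HTSeq 0.6.0, HISAT2 2.1.0, Bowtie2 2.2.3, TopHat2 and CASAVA, without saying what each did. Not given in the sources used here are the genome build, annotation, strand setting and origin of the decimals, so overlapping and antisense genes could not be told apart. Of the rows, 56877 held values and 8 rows of stray text were left out. None of the identifiers matched the reference table of assembly Glycine_max_v4.0, so no gene names, sequences or gene lists were used.

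Estimated counts were rounded to whole numbers. The filterByExpr defaults (count 10, total count 15) kept 37170 genes, holding 99.9% of all counts, and TMM scaled the libraries. edgeR 4.0.16 (R 4.3.3) fitted 1 mean per group to all 12 libraries with robust quasi-likelihood, and the two-sided F-test was adjusted by Benjamini-Hochberg over all tested genes at 0.05. The script was tested on simulated data. SE was taken as the absolute log2 fold change divided by the root of F. Where F is very small, that SE is no guide to precision. Folds against a group without counts are lower bounds against 3 counts over that group. Such bounds cover counting error only.

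Named genes follow a rule without descriptions: the 2 largest rises and 2 largest falls that reach 5 CPM on average in either OX group without overlap, with Glyma.20G176500 and Glyma.10G215200. Others were chosen after their values were seen, as stated beside them. Those chosen for a mean of 50 CPM or more in OX_CK also had to lack overlap. The comparisons, members and rules were chosen with earlier results of these data known. Alternatives were other scaling, no filter, OX libraries alone, a replicate block, DESeq2 1.42.0, limma-voom (limma 3.58.1), stricter thresholds, whole-valued genes, rounding down and each library left out.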

Additional observations from a re-analysis of the deposited data

Results flagged for a closer look

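The aluminium response differed between OX and WT for 605 genes by edgeR's test of the difference. Of the genes named above, Glyma.11G212300 had an adjusted p of 5.36e-06 for that difference, Glyma.09G278900 of 0.00192, Glyma.13G203000 of 0.000156 and MSTRG.8684 of 0.0161. These genes were picked for their difference. With 3 libraries a group, no group was tested for a library that stands apart.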

How the results depend on the processing

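The counts of raised and lowered genes in OX_Al against OX_CK stayed within 1.5 times under other size factors, no filter, the 6 OX libraries alone, DESeq2, limma-voom and values rounded down. Whole-valued genes alone, which are fewer genes tested, gave 4159 raised and 3544 lowered, and a log2 fold change of 1 or more gave 5019 and 2347. An adjusted p under 0.01 left 2571 lowered. Without 1 OX library the counts ran from 6311 to 8054 raised and from 3107 to 6059 lowered. For the difference of the response, the counts higher and lower in OX were 760 and 731 by DESeq2 and 107 and 40 at an adjusted p under 0.01. Whole-valued genes gave 180 higher, and limma-voom gave 137 lower. Without 1 library they ran from 166 to 360 and from 95 to 437, and the cause was not tested. The share that was higher in OX was 54.0%, against 40.6% without OX_CK replicate 1 and 69.4% by limma-voom. With replicate number as a block, 9000 genes rose and 7486 fell, and 427 responses were higher and 301 lower in OX. The correlations of same-numbered OX_Al and OX_CK libraries were 0.204, -0.00396 and 0.163. OX_Al replicates 1 and 3 matched the OX_CK library of their own number best, and OX_Al replicate 2 matched OX_CK replicate 3 best (0.142). The labels do not say that the numbers pair the libraries, and they were not taken to do so. Across 363 alternatives for the named genes and the ends of the runs, 357 kept their call, 6 lost it and 0 reversed. These include the stricter thresholds, which set the unchanged main value against another cut without a new fit.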

Other observations

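The aluminium response of OX roots was spread over all 20 chromosomes. The share of tested genes raised ran from 19.5% on chromosome 14 to 23.4% on chromosome 13, and the share lowered from 13.9% on chromosome 15 to 17.6% on chromosome 12, beside 21.2% and 15.2% of all tested genes. Genes that rose on chromosome 15 had a median log2 fold change of 1.56, and on the other chromosomes it lay between 1.23 and 1.43. Of 207 tested genes on unplaced sequence, 41 rose and 25 fell.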
